A study of Sus scrofa with 48 samples.

Results

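The genes that make, conjugate, carry and sense bile acids were followed in the liver of pigs. The pigs came from 2 lines divergently selected for residual feed intake (RFI). As selected on, RFI is the part of feed intake not accounted for by growth rate and backfat thickness. A set of 8 genes was taken, *CYP7A1*, *CYP8B1* and *CYP27A1* (synthesis), *BAAT* (conjugation), *ABCB11* (export), *SLC10A1* (uptake), and *NR1H4* and *NR0B2* (sensing and repression), and every probe that the array files or the RefSeq gene table ties to them was used. The array carried 15 such probes, for 7 of the 8 genes, among 60305 probes in all. Each of the 15 was among the 45236 tested probes, those well above the local background on at least 12 arrays. *BAAT*, whose enzyme joins bile acids to glycine or taurine, was not analysed here.

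The pigs were 48 purebred Large White barrows, with 1 liver RNA sample and 1 single-colour array per pig. From the low RFI line, 12 pigs were fed a diet rich in fat and fiber (HF) and 12 a diet poor in both (LF), and the high RFI line was divided in the same way, with 12 and 12 pigs. Slaughter took place after a meal. There was 1 selected line of each kind and the diets differed in fat and fiber together, so that selection cannot be told apart from other differences between the lines, nor fat from fiber.

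Hepatocytes turn cholesterol into bile acids by a classical route opened by *CYP7A1*, the rate-limiting 7-alpha-hydroxylase, and by an alternative route opened by the mitochondrial sterol 27-hydroxylase *CYP27A1*. *CYP8B1* adds the 12-alpha hydroxyl group of cholic acid, a minor bile acid in the pig, whose bile is rich in hyocholic and hyodeoxycholic acids. Bile acids leave the hepatocyte through the canalicular pump *ABCB11* (BSEP), return with portal blood through the sodium-dependent carrier *SLC10A1* (NTCP), and are sensed by the nuclear receptor *NR1H4* (FXR), which induces the repressor *NR0B2* (SHP) that in turn holds back *CYP7A1*.

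The values came from 60-base probes, and 1 probe for each of 6 genes is printed to show which stretch of sequence carried the signal. These probes have at least 1 forward reading frame without a stop codon. Sequences run 5′ to 3′ as the array files give them, in lower case with no base marked.
CYP7A1 probe 2: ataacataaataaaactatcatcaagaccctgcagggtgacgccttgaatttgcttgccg
CYP8B1 probe 1: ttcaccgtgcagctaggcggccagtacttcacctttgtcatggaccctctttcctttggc
CYP27A1 probe 3: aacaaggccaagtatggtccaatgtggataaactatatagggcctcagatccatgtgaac
ABCB11 probe 2: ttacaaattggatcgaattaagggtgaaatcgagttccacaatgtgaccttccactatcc
NR0B2 probe 1: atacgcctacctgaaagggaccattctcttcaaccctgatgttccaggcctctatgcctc
NR1H4 probe 3: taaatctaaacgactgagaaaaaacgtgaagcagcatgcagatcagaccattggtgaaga

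These probes held between 40% G and C (*ABCB11* probe 2 and *NR1H4* probe 3) and 55% (*CYP8B1* probe 1). The files tie *CYP8B1* probe 1, *CYP27A1* probe 1 and *ABCB11* probe 2 to human transcripts, and the other probes of these genes to pig transcripts. Probes are numbered from the brightest within a gene, and the brightest probe stands for the gene where a single value is given.

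The 48 arrays were spread over 6 slides of 8 arrays, with 2 arrays of each group on a slide, and over 2 scan days of 24 arrays, with 6 arrays of each group on a day. Between 65.8% and 77.2% of probes were well above background on an array, with median background-subtracted intensities of 53.04 to 126.4 scanner units. The 6 tested hepatocyte markers of a list of 7 (*ALB*, *APOA1*, *TF*, *TTR*, *SERPINA1* and *FGB*) were each well above background on all arrays. Values are log2 intensities minus the median of the array, so that 0 is the typical probe of that array, and levels of different probes are not compared. Arrays measure RNA per total RNA, so fewer cells of a type and less RNA per cell cannot be told apart. Replicate numbers follow the order of deposit, in which pigs of like number in the 4 groups shared a slide and a scan day.

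Fold changes (FC) were tested with a linear model for line, diet and their interaction (limma), and a probe was called a differentially expressed probe (DEP) at P under 0.01 with FC over 1.1. P-BH is the Benjamini-Hochberg adjusted value over all 45236 tested probes. All 3 probes of *NR1H4*, the bile acid receptor, were over-expressed with the HF diet, by 0.16 to 0.25 on the log2 scale, and they were the 3 DEP for diet among the 15 probes (20%, where 4.61% of all tested probes were called and 2.07% were called higher). These 3 probes read 1 gene in the same pigs. Counted by gene, 1 of 7 members had a DEP for diet, where 6.15% of 11136 named genes did. No member was DEP for line, where 6.91% of all tested probes were, and 1 of 15 had P under 0.05 where 14.7% of all tested probes did. No member was DEP for line by diet either, where 0.376% of all tested probes were, and 0 of 15 had an unadjusted P under 0.05 there, where 2.37% did. For diet 4 of 15 had an unadjusted P under 0.05, where 14.4% of all tested probes did. At a P-BH of 5% limma called 0 of 15 for each of these terms, where it called 3.93% of all tested probes for line, 0.455% for diet and 0 for line by diet. Within the HF diet and within the LF diet 0 of 15 were DEP for line, where 3.41% and 3.84% of all tested probes were. Over the 15 probes the median log2 FC was 0.02 for line (0.01 over all tested probes) and 0.08 for diet (-0.01 over all tested probes).

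**Figure D1:**
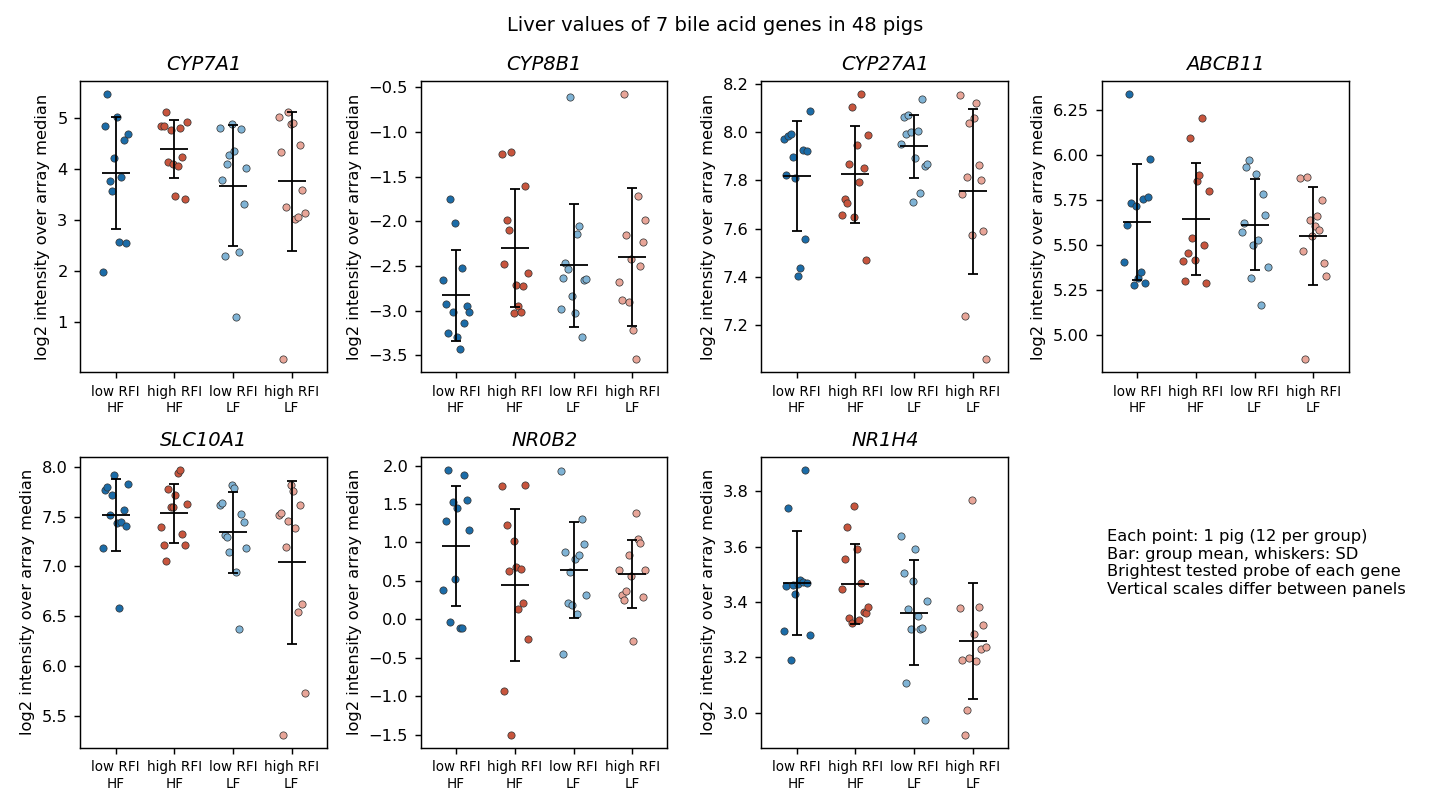
Log2 intensity over the array median (vertical axis, with its own range in each panel) of the brightest probe of 7 bile acid genes in 4 groups of 12 pigs. Points are pigs, bars are group means and whiskers are SD. *CYP7A1* spans 5.20 log2 units across pigs, *NR1H4* spans 0.96 and sits lowest in the high RFI pigs fed LF, and the groups overlap in every panel.

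Among the synthesis genes, *CYP7A1* was the most variable member. In pigs fed HF its brightest probe ranged from 1.96 (median 4.02) to 5.47 in the low RFI line and from 3.41 (median 4.50) to 5.12 in the high RFI line. In pigs fed LF it ranged from 1.098 (median 4.06) to 4.87 in the low RFI line and from 0.27 (median 3.96) to 5.13 in the high RFI line. The groups overlapped over most of their range, their upper ends were close together, and they differed mainly in how low their lowest pigs were. Between the lowest and the highest pig the intensity differed 36.8-fold for probe 1 and 37.8-fold for probe 2, and the 2 probes ranked the pigs alike (r = 0.861, rho = 0.789 over 48 pigs after removal of group means). The SD within groups of probe 1 was larger than that of 98.7% of all tested probes and of 99.3% of the 2687 probes of similar brightness, and that of probe 2 was 1.06 log2 units.

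Neither probe of *CYP7A1* was called for line or diet. For line (low minus high RFI) the log2 FC was -0.28 ± 0.31 (SE, 95% interval -0.90 to 0.34, P = 0.373) at probe 1 and -0.39 ± 0.30 (interval -0.99 to 0.21, P = 0.198) at probe 2. For diet (HF minus LF) it was 0.44 (interval -0.18 to 1.06, P = 0.157) and 0.56 (interval -0.04 to 1.16, P = 0.0666), with 16 and 18 of 24 HF pigs above the LF median. In terms of FC the intervals at probe 1 ran from 0.537 to 1.27 for line and from 0.885 to 2.09 for diet. Without replicate 3 of the high RFI LF group, the lowest pig, the log2 FC for line was -0.44 (P = 0.118) and -0.55 (P = 0.0374), and that for diet 0.28 (P = 0.303) and 0.40 (P = 0.131).

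*CYP8B1*, the 12-alpha-hydroxylase, was close to the background. Probe 1 had a median intensity of 34.3 scanner units and was well above background on 47 arrays, and probe 2 had 17.7 units and was well above background on 30 arrays (6, 9, 8 and 7 of 12 in the low RFI HF, high RFI HF, low RFI LF and high RFI LF groups). Probe 1 ranged from -3.43 (median -2.75) to -0.61 in the low RFI line and from -3.54 (median -2.49) to -0.58 in the high RFI line, so the lines overlapped over nearly their whole range, although only 6 of 24 low RFI pigs were above the high RFI median. The log2 FC for line was -0.31 (interval -0.68 to 0.07, P = 0.106) at probe 1 and -0.64 (interval -1.24 to -0.04, P = 0.0383, P-BH = 0.297) at probe 2, the smallest P for line among the 15 probes. The probes of this gene followed each other only in part across pigs (r = 0.466), and the part of their dimness in the spread was not tested.

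*CYP27A1*, which opens the alternative route, was bright and had a smaller SD within groups (0.24 to 0.30) than *CYP7A1* and *CYP8B1*, although that SD was larger than that of 66.7% to 75.4% of probes of similar brightness. Probe 1 ranged in pigs fed HF from 7.41 (median 7.91) to 8.09 in the low RFI line and from 7.47 (median 7.82) to 8.16 in the high RFI line. In pigs fed LF it ranged from 7.71 (median 7.97) to 8.14 in the low RFI line and from 7.06 (median 7.81) to 8.16 in the high RFI line. The low RFI pigs fed LF were the tightest group (SD 0.13) and the high RFI pigs fed LF the widest (SD 0.34), and all groups overlapped. With LF the 3 probes had a log2 FC for line of 0.19 (P = 0.0604), 0.17 (P = 0.174) and 0.24 (interval 0.03 to 0.46, P = 0.0283, P-BH = 0.409), and none was called. The test of the difference between the diets, the line by diet term, gave -0.20 (P = 0.16), -0.28 (P = 0.103) and -0.27 (P = 0.0826), also without a call. The main effects of line and diet on the 3 probes lay between -0.09 and 0.11.

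Of the transporters, the export pump *ABCB11* was nearly level across the groups. In pigs fed HF probe 1 ranged from 5.28 (median 5.67) to 6.34 in the low RFI line and from 5.29 (median 5.52) to 6.21 in the high RFI line. In pigs fed LF it ranged from 5.17 (median 5.60) to 5.98 in the low RFI line and from 4.87 (median 5.60) to 5.88 in the high RFI line. The 4 groups overlapped throughout, and both probes gave a log2 FC of 0.02 for line (interval -0.15 to 0.19) and of 0.06 for diet (intervals -0.11 to 0.22 and -0.11 to 0.23). Over both probes and both comparisons the intervals of the FC lay between 0.903 and 1.18. The probes followed each other closely (r = 0.931).

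*SLC10A1*, the uptake carrier, was read by 1 probe and had a tail of low pigs. It ranged in pigs fed HF from 6.58 (median 7.54) to 7.92 in the low RFI line and from 7.05 (median 7.60) to 7.97 in the high RFI line. With LF it ranged from 6.37 (median 7.38) to 7.82 in the low RFI line and from 5.31 (median 7.42) to 7.81 in the high RFI line. The tops of the groups coincided and the low tail was longest in high RFI pigs fed LF (SD 0.82, against 0.30 to 0.40 in the other groups). The log2 FC for diet was 0.33 (interval 0.04 to 0.62, P = 0.0256, P-BH = 0.273), short of the call, and 0.26 (P = 0.0484) without the lowest pig. For line it was 0.14 (interval -0.15 to 0.43, P = 0.339).

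The receptor *NR1H4* was the only member called for any effect. Probe 1 ranged in pigs fed HF from 3.19 (median 3.46) to 3.88 in the low RFI line and from 3.32 (median 3.41) to 3.75 in the high RFI line. In pigs fed LF it ranged from 2.97 (median 3.36) to 3.64 in the low RFI line and from 2.92 (median 3.23) to 3.77 in the high RFI line. The diets overlapped, but 21 of 24 HF pigs were above the LF median at probe 1 and 20 of 24 at probes 2 and 3. The mean of probe 1 was 3.47 ± 0.16 (SD, n = 24) with HF and 3.31 ± 0.20 with LF.

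At probes 2 and 3 of *NR1H4* the diet means were 1.65 ± 0.20 against 1.44 ± 0.19, and 1.57 ± 0.30 against 1.31 ± 0.25. The FC was 1.11 (interval 1.03 to 1.20, P = 0.00601, P-BH = 0.164) at probe 1, 1.16 (1.07 to 1.26, P = 0.000468, P-BH = 0.0642) at probe 2 and 1.19 (1.07 to 1.33, P = 0.00293, P-BH = 0.129) at probe 3. The SD within groups of probes 1, 2 and 3 was larger than that of 17.5%, 21.7% and 50% of all tested probes, and of 31.7%, 31.5% and 66.7% of probes of similar brightness. The probes shared direction but not pig-to-pig variation in full, with r of 0.771 between probes 1 and 2, 0.523 between 1 and 3 and 0.184 between 2 and 3.

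Split by line, all 3 *NR1H4* probes were called for diet in the high RFI line, by 0.21 (P = 0.00991), 0.28 (P = 0.00139) and 0.31 (P = 0.00989), with P-BH of 0.45 or more, where 1.58% of all tested probes were called and 0.787% called higher. In the low RFI line the values were 0.11 (P = 0.174), 0.16 (P = 0.0607) and 0.20 (P = 0.0864), without a call, where 2.68% of all tested probes were called. The difference between the lines was itself not called (line by diet -0.10, -0.12 and -0.11, P = 0.36, 0.302 and 0.511), so the diet effect is not shown to differ between them. Calls in the high RFI line fell from 3 to 1 with scan day as a block, and with centring on the 75th percentile or quantile normalization.

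Within each scan day the direction of the diet effect on *NR1H4* was the same. On day 1 the log2 FC of the 3 probes was 0.15 (P = 0.115), 0.22 (P = 0.0199) and 0.17 (P = 0.181), and on day 2 it was 0.17 (P = 0.0242), 0.22 (P = 0.0123) and 0.34 (P = 0.00506, the only call, with 12 pigs per diet on each day). The mean log2 array median intensity was 6.32 ± 0.29 (SD, n = 24) with HF and 6.19 ± 0.21 with LF, and it correlated weakly with *NR1H4* (r = 0.0843 over 48 pigs). The mean of the 6 hepatocyte markers differed by -0.10 between HF (9.86 to 10.5) and LF (10.2 to 10.6), and correlated with *NR1H4* at r = -0.229. The mean of 6 cholangiocyte markers, of the cells that line the bile ducts (*KRT7*, *KRT19*, *EPCAM*, *SOX9*, *CFTR* and *SPP1*, 5 of them well above background on all arrays), differed by 0.25 between HF (-1.76 to -0.34) and LF (-2.01 to -0.58), with r = 0.248. Of the other marker lists, that of red cells (*HBB* and *ALAS2*) differed most, by -0.32 between HF (-0.16 to 1.85) and LF (0.16 to 2.05), with *HBB* at -0.57 (P = 0.0109, not called) and r = 0.0122 with *NR1H4*. Stellate cell markers differed by 0.12 (r = 0.21), and the remaining lists by -0.05 to 0.06. Of single markers, *ALB* was called lower with HF at 7 of 21 probes (-0.13 at the brightest, P = 0.0339). *EPCAM* was called higher with HF at 5 of 18 probes (0.31 at the brightest, P = 0.0235), and no other listed marker was called for diet. The part of these cells and of array intensity in the diet difference was not tested. Leaving out 1 pig in turn left 2 or 3 called probes: probe 1 had P of 0.0101 to 0.0116 without replicate 3 or 10 of low RFI HF, 3 or 6 of high RFI HF, 3 or 11 of low RFI LF, or 3 or 4 of high RFI LF.

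*NR0B2*, the repressor that the receptor induces, was called for no effect. Probe 1 ranged in pigs fed HF from -0.12 (median 1.22) to 1.94 in the low RFI line and from -1.50 (median 0.64) to 1.75 in the high RFI line. In pigs fed LF it ranged from -0.45 (median 0.70) to 1.93 in the low RFI line and from -0.29 (median 0.60) to 1.39 in the high RFI line. The lowest pigs were high RFI pigs fed HF, the groups overlapped, and the probes ranked the pigs nearly identically (r = 0.959). The log2 FC was 0.28 (interval -0.14 to 0.70, P = 0.186) and 0.23 (-0.08 to 0.54, P = 0.142) for line, and 0.08 (-0.33 to 0.50) and 0.06 (-0.25 to 0.37) for diet. Its SD within groups, 0.74 for probe 1, was larger than that of 94.5% of all tested probes.

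**Figure D2:**
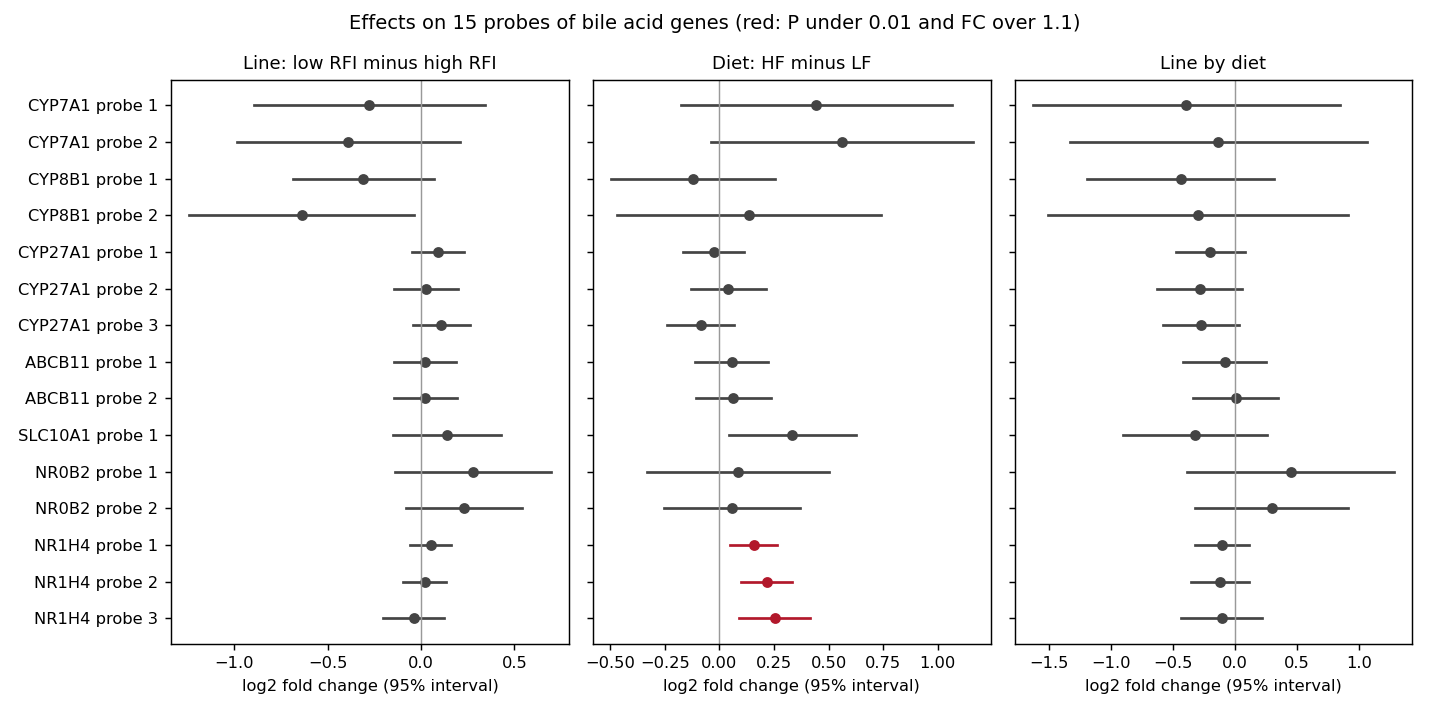
Log2 fold change (points) with 95% intervals (lines) for line, diet and line by diet at each of 15 probes. Red marks probes called at P under 0.01 and FC over 1.1. The 3 red intervals are the *NR1H4* probes for diet (0.16 to 0.25), and the intervals of *CYP7A1* and *CYP8B1* probe 2 are the widest.

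When the 4 group means of each gene were put in order, none of the 21 steps between neighbouring groups was called. For *CYP7A1* the order was high RFI HF (4.39), low RFI HF (3.92), high RFI LF (3.75) and low RFI LF (3.67), with the widest step 0.47 ± 0.44 (SE, P = 0.284). For *NR1H4* the order was low RFI HF (3.47), high RFI HF (3.47), low RFI LF (3.36) and high RFI LF (3.26), so that both HF groups stood above both LF groups, by steps of 0.10 (P = 0.182) and then 0.10 (P = 0.188). *SLC10A1* had the HF groups on top as well (7.53 and 7.51 against 7.34 and 7.04). P values of these steps are unadjusted, and the values tested are those that set the order.

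Several members varied together among pigs of the same group. Over the 21 pairs of 7 genes, the deviations from group means were correlated in 9 pairs at an adjusted P under 0.05, 6 positively and 3 negatively (permutation test with 100000 resamples within groups, 2-sided, 48 pigs), and in 6 of them Spearman's rho passed as well. *SLC10A1* was a partner in 4 of the 5 strongest pairs. It was correlated with *CYP7A1* (r = 0.671, rho = 0.593, P = 2e-05, adjusted P = 0.00014), *CYP27A1* (r = 0.618, rho = 0.405, P = 0.00012, adjusted P = 0.00063) and *ABCB11* (r = 0.609, rho = 0.568, P = 1e-05, the smallest the resampling can give, adjusted P = 0.000105). It ran opposite to *CYP8B1* (r = -0.514, rho = -0.524, P = 0.00073, adjusted P = 0.00307). *CYP27A1* and *ABCB11* were correlated with each other (r = 0.644, rho = 0.641, P = 1e-05, adjusted P = 0.000105).

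The other 4 pairs were weaker: *CYP7A1* with *NR1H4* (r = 0.449, rho = 0.399, adjusted P = 0.0143), *CYP7A1* with *ABCB11* (r = 0.344, rho = 0.209, adjusted P = 0.0468), *CYP8B1* with *ABCB11* (r = -0.377, rho = -0.264, adjusted P = 0.0301) and *CYP7A1* with *CYP8B1* (r = -0.358, rho = -0.348, adjusted P = 0.0478). Within scan days all 9 kept their sign, but with 24 pigs a day 0 of 21 pairs passed on day 1 and 5 on day 2. For the 5 strongest pairs r on days 1 and 2 was 0.766 and 0.607 for *CYP7A1* with *SLC10A1*, 0.564 and 0.74 for *CYP27A1* with *ABCB11*, 0.536 and 0.684 for *ABCB11* with *SLC10A1*, 0.482 and 0.703 for *CYP27A1* with *SLC10A1*, and -0.598 and -0.612 for *CYP8B1* with *SLC10A1*. For *CYP7A1* with *NR1H4* it was 0.639 and 0.0951. The negative pairs all included *CYP8B1*, which was close to the background. With the mean of a member's tested probes in place of the brightest, 6 of 21 pairs passed, 5 positively and 1 negatively. *CYP8B1* with *SLC10A1* still passed (r = -0.442, adjusted P = 0.0152). *CYP8B1* with *ABCB11* (r = -0.29, adjusted P = 0.141) and *CYP7A1* with *CYP8B1* (r = -0.169, rho = 0.0472) no longer passed. Nor did *CYP7A1* with *NR1H4* (r = 0.337, adjusted P = 0.0828).

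No pair with *NR0B2* passed. Its 6 coefficients lay between -0.163 (with *CYP8B1*) and 0.245 (with *NR1H4*), and with *CYP7A1*, the gene it represses, r was 0.131 (rho = 0.132, P = 0.318, adjusted P = 0.418).

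**Figure D3:**
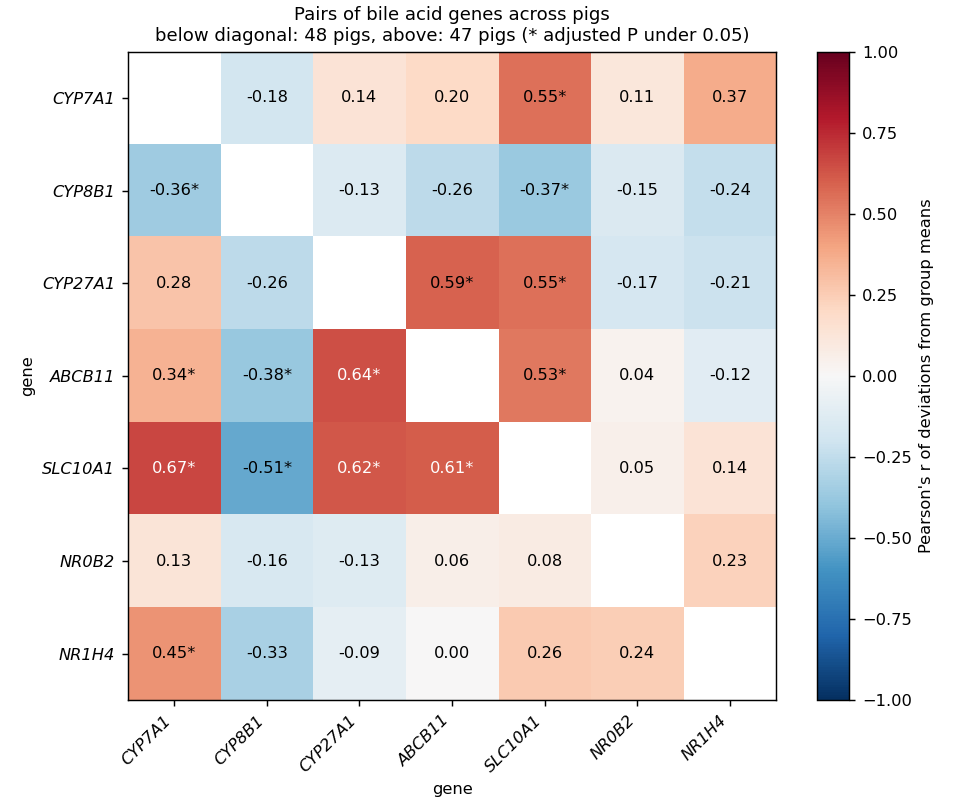
Pearson's r of deviations from group means for each pair of 7 genes, below the diagonal over 48 pigs and above it over 47 pigs without replicate 3 of the high RFI LF group (stars: permutation P, adjusted over 21 pairs, under 0.05). The block of *CYP27A1*, *ABCB11* and *SLC10A1* (0.61 to 0.64 over 48 pigs) and *CYP7A1* with *SLC10A1* keep their stars in both, and the row of *NR0B2* is pale.

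A single pig was at the end of the range for 5 of the 7 genes. Replicate 3 of the high RFI pigs fed LF had the lowest *CYP7A1* (0.27), *SLC10A1* (5.31), *ABCB11* (4.87) and *NR1H4* (2.92) of all 48 pigs, and the highest *CYP8B1* (-0.58). The next of all pigs had 1.098 for *CYP7A1*, 5.72 for *SLC10A1*, 5.17 for *ABCB11*, 2.97 for *NR1H4* and -0.61 for *CYP8B1*, so that for *NR1H4* and for *CYP8B1* a pig of the low RFI line fed LF, a different one for each gene, was close to it. Its array lay within the range of the others, with a median intensity of 67.94 and 71.1% of probes well above background. Without it, 5 of 21 pairs passed, all of them among the 9: *CYP27A1* with *ABCB11* (r = 0.593), *CYP7A1* with *SLC10A1* (0.553), *CYP27A1* with *SLC10A1* (0.548, rho = 0.319), *ABCB11* with *SLC10A1* (0.525) and *CYP8B1* with *SLC10A1* (-0.373, adjusted P = 0.043). *CYP7A1* with *NR1H4* moved to 0.368 (adjusted P = 0.0611), and the remaining 3 lay between -0.26 and 0.199. Leaving out the 2 pigs farthest from the median of 1 member gave 0.557 for *CYP7A1* with *SLC10A1*, 0.612 for *CYP27A1* with *ABCB11*, 0.543 for *ABCB11* with *SLC10A1*, 0.424 for *CYP27A1* with *SLC10A1*, -0.396 for *CYP8B1* with *SLC10A1*, 0.405 for *CYP7A1* with *NR1H4*, 0.206 for *CYP7A1* with *ABCB11*, -0.214 for *CYP8B1* with *ABCB11* and -0.172 for *CYP7A1* with *CYP8B1*.

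**Figure D4:**
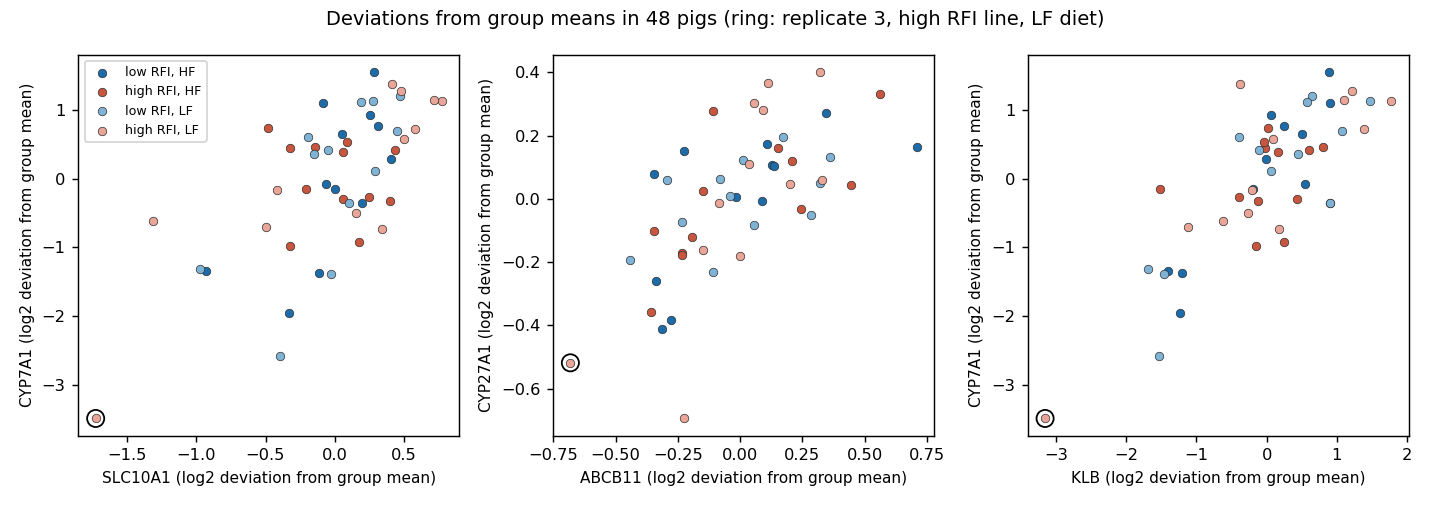
Deviations from the group mean (log2) of *CYP7A1* against *SLC10A1* (left), *CYP27A1* against *ABCB11* (centre) and *CYP7A1* against *KLB* (right), with 1 point per pig, coloured by group, and replicate 3 of the high RFI LF group ringed. The clouds slope upwards (r = 0.671, 0.644 and 0.795 over 48 pigs), and the ringed pig is at the lower left of each.

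Brightness of the array was set against the members too. Its log2 median intensity had r between -0.184 (*ABCB11*) and 0.0982 (*CYP7A1*) with them, and the share of probes well above background had r between -0.119 (*SLC10A1*) and 0.0531 (*NR0B2*), apart from *CYP8B1* (0.346). The mean of 5 Kupffer cell and macrophage markers (*CD163*, *CD68*, *CSF1R*, *CD14* and *C1QA*, all well above background on all arrays) had negative coefficients with *CYP27A1* (r = -0.484), *ABCB11* (-0.449) and *SLC10A1* (-0.424), and without the extreme pig at -0.443, -0.402 and -0.364. Over the 4 groups that mean had its medians between 2.53 and 2.70 and its values between 2.13 and 3.29. The mean of the 6 hepatocyte markers had r of 0.394 with *ABCB11* and 0.304 with *CYP27A1*. With the other members it lay between -0.229 (*NR1H4*) and 0.15 (*SLC10A1*). The largest coefficients of the other lists were 0.34 for red cell markers with *CYP27A1*, and -0.334 and 0.312 for stellate cell markers with *CYP8B1* and *CYP7A1*. The part of these cell types in the correlations was not tested, and the coefficients are descriptions over 48 pigs.

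The gene whose deviations were most like those of *CYP7A1*, among 11135 other named genes, was *KLB* (r = 0.795; 0.823 and 0.773 on the 2 scan days; 0.728 without the extreme pig), which encodes beta-Klotho, the co-receptor through which the intestinal hormone FGF19 represses bile acid synthesis. *ACSS2* (0.738), a cytosolic acetyl-CoA synthetase, and *RFC1* (0.735), a subunit of the clamp loader in DNA replication, followed. The most opposite were *PC* (-0.715), the pyruvate carboxylase of gluconeogenesis, the nucleotide sugar carrier family member *SLC35A4* (-0.707) and *AAMP* (-0.678). Without the extreme pig the 6 coefficients lay between 0.649 and 0.728 in size.

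Among the genes most like *NR1H4* were *FUT1* (0.648), a fucosyltransferase, and *DAAM1* (0.626), an actin regulator. The most opposite were the urea cycle enzyme *ASS1* (-0.653), *NHEJ1* (-0.633), of DNA end joining, and the arginase *ARG2* (-0.628). The coefficients of these 5 genes were larger in size on day 1 than on day 2, such as that of *ASS1* with -0.855 and -0.314, and without the extreme pig they lay between 0.615 and 0.67 in size. These genes were chosen for the size of r, which is a description over 48 pigs whose genes share an array.

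The members that follow were described in the same way after their values were seen. *SLC10A1* was most like *EXTL1* (0.882), *C14H10ORF32* (0.865) and *SLC25A21* (0.843), a mitochondrial carrier, and most unlike *LITAF* (-0.781), and shared *PC* (-0.763) with *CYP7A1*. *ABCB11* was most like *ABCB10* (0.852), a mitochondrial transporter, and *CYP27A1* like the peroxisomal catalase *CAT* (0.823). Likeness was lower for *NR0B2*, closest to the clock repressor *NR1D1* (0.535, with 0.633 and 0.425 on the 2 days).

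The rest of the pathway was read from a list of 51 other bile acid genes, of which 44 had tested probes (97 probes). For line, 6 of 44 genes had at least 1 DEP (13.6%, where 9.71% of 11136 named genes did), 2 higher and 4 lower in the low RFI line. For diet, 3 of 44 did (6.82%, with 6.15% of named genes), all higher with HF, and for line by diet 2 of 44 (4.55%, with 0.548% of named genes). The median log2 FC of the 44 genes was 0.01 for line and -0.01 for diet, beside 0.01 and -0.02 over all named genes. Synthesis held 1 gene called for line of 13, transport 3 of 13 and regulation 2 of 17. Not tested were *AMACR*, *ABCC4*, *ABCG5*, *SLCO1B3*, *SLC51A*, *FGF19* and *VDR*.

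*SLCO2B1*, an organic anion carrier, was under-expressed in the low RFI line at both of its probes. In the low RFI line its dimmer probe ranged from 6.16 (median 6.61) to 7.07 with HF and from 5.56 (median 6.26) to 6.84 with LF. In the high RFI line it ranged from 6.52 (median 6.87) to 7.25 with HF and from 6.46 (median 6.84) to 7.23 with LF. The low RFI pigs fed LF were the lowest group. Of 24 low RFI pigs 22 were below the high RFI median (18 of 24 at the brighter probe), although the lines overlapped. The log2 FC was -0.43 (interval -0.60 to -0.25, P-BH = 0.00114) and at the brighter probe -0.26 (interval -0.41 to -0.11, P-BH = 0.039). Within the LF diet both probes were called for line (-0.59 and -0.35). Within the HF diet neither was (-0.27, P = 0.0321, and -0.17, P = 0.114).

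Others called for line had 1 DEP among several probes. *HSD17B4*, a peroxisomal enzyme of side chain shortening, was lower in the low RFI line (5.48 ± 0.46 against 5.89 ± 0.39, SD, n = 24) by 0.41 at 1 of 3 probes (P-BH = 0.0363), while its brightest probe gave -0.06 (P = 0.424). *ABCG2*, an efflux pump, was lower by 0.29 at 1 of 4 probes (P = 0.00986, P-BH = 0.139; brightest probe -0.19, P = 0.0922), and *PPARA*, the fatty acid receptor, was lower by 0.37 at 1 of 3 probes (P = 0.00727, P-BH = 0.116), with 0.04 (P = 0.761) and -0.07 (P = 0.624) at the others. Those higher in the low RFI line were *ABCC2* (MRP2), the canalicular pump for conjugates, by 0.31 at 1 of 5 probes (P = 0.00666, P-BH = 0.11, with -0.01 to 0.29 at the others), and the transcription factor *ONECUT1* by 0.17 at 1 of 3 (P = 0.00979, P-BH = 0.139, with 0.15 and -0.01 at the others). With all 48 pigs, *ABCG2*, *ONECUT1* and *PPARA* lost their call for line under at least 1 other way of processing, with P of 0.0105 to 0.0125. Cell type markers differed between the lines as well. The mean of the macrophage markers differed by -0.13 between the low (2.13 to 3.15) and the high RFI line (2.25 to 3.29). Of these markers, 1 of 2 *C1QA* probes was called lower and *CSF1R* was at -0.24 (P = 0.0102, not called). *CD163* (-0.18) and *CD68* (-0.09) were lower without a call, and *CD14* (0.06) was higher without a call. The means of the other lists differed by -0.20 (B cells) to 0.23 (red cells). The cholangiocyte marker *KRT7* was called lower (-0.35, P = 0.00646), and *EPCAM* at 1 of 18 probes (-0.09 at the brightest). In the same list *KRT19* (-0.24) and *SPP1* (-0.21) were lower without a call. *SOX9* (0.40, P = 0.0505) and *CFTR* (0.23) were higher without a call, and the mean of that list differed by -0.04. The hepatocyte marker *APOA1* was called higher at 4 of 4 probes (0.15 at the brightest, P = 0.00777). The stellate cell marker *COL1A2* was called higher at 1 of 4 probes (0.14 at the brightest, P = 0.158). The part of these cell types in the line differences was not tested.

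The canalicular transporters *ABCB4*, which brings phospholipid into bile, and *ABCB1*, a drug efflux pump, were over-expressed with the HF diet. In high RFI pigs *ABCB4* ranged from 1.74 (median 2.21) to 3.08 with HF and from 1.18 (median 1.54) to 2.48 with LF. In low RFI pigs it ranged from 1.78 (median 2.11) to 2.46 with HF and from 1.43 (median 2.07) to 2.59 with LF. The high RFI pigs fed LF were thus the low group, and the other groups lay together. The log2 FC for diet was 0.44 (interval 0.26 to 0.62, P = 1.19e-05, P-BH = 0.0244) over both lines, with 24 of 24 HF pigs above the LF median, 0.70 in the high RFI line (P-BH = 0.0362) and 0.18 in the low RFI line (P = 0.171), without a call there.

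*ABCB1* followed the same pattern, with means of 2.23 ± 0.36 (HF) and 1.48 ± 0.37 (LF; SD, n = 12) in the high RFI line and 2.01 ± 0.38 and 1.91 ± 0.27 in the low RFI line. Its log2 FC for diet was 0.42 (interval 0.22 to 0.62, P-BH = 0.0383) over both lines, 0.75 in the high RFI line (P-BH = 0.0362) and 0.10 in the low RFI line (P = 0.489), without a call there. The line by diet term was -0.65 (P = 0.00186) for *ABCB1* and -0.52 (P = 0.00517) for *ABCB4*, called by the unadjusted rule with P-BH of 1 in both. Each had a single tested probe, the 2 probes correlated across pigs (r = 0.893; 0.923 and 0.932 on the scan days), and their longest shared run was 10 of 60 bases. The genes are related in sequence, and whether their probes share signal was not tested. *PPARA* was also higher with HF at 1 of 3 probes, by 0.40 (P = 0.00361, P-BH = 0.139), with 22 of 24 HF pigs above the LF median, and its other probes had 0.02 (P = 0.842) and 0.29 (P = 0.0326), without a call.

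**Figure D5:**
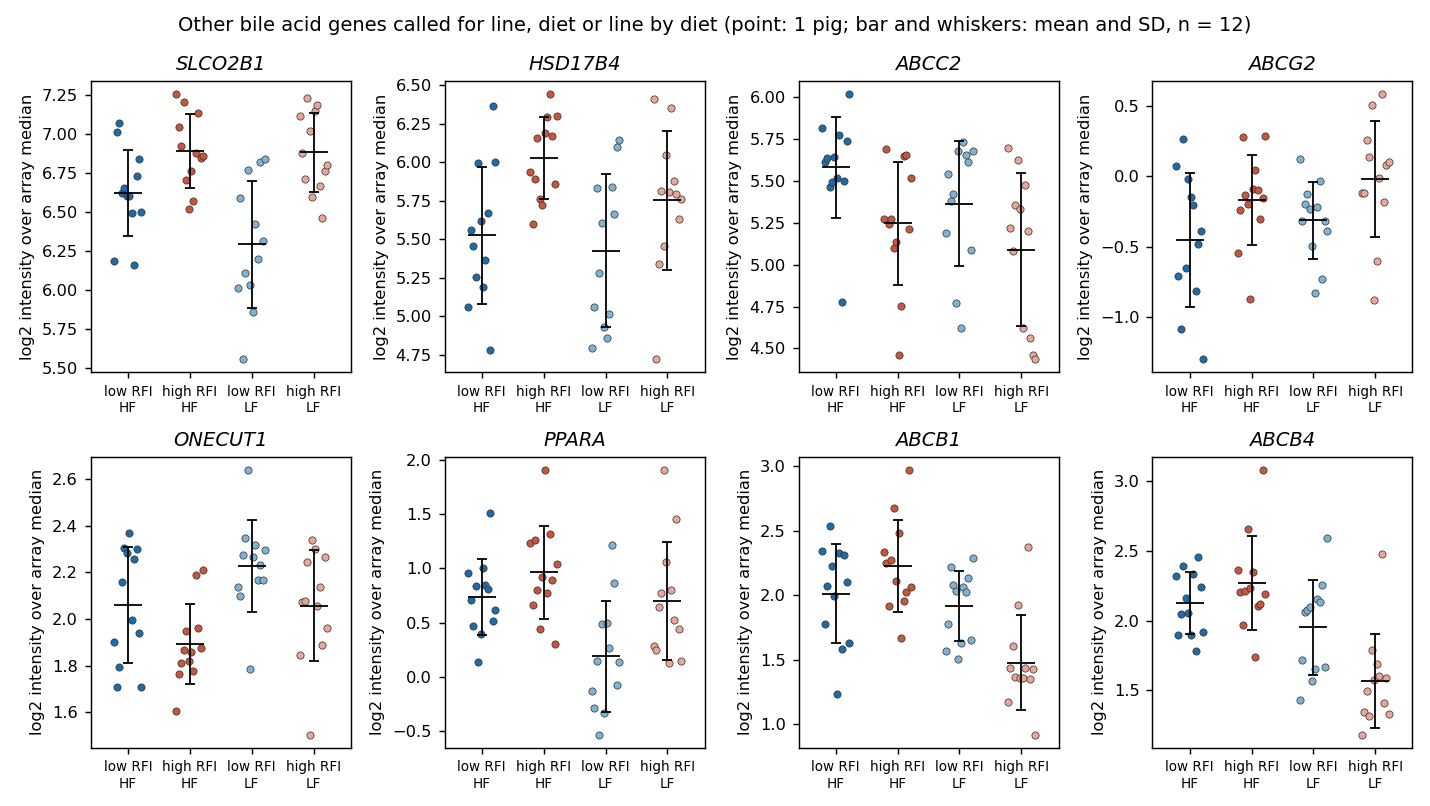
Log2 intensity over the array median of 8 other bile acid genes called for line, diet or line by diet, 1 probe each, in 4 groups of 12 pigs (points: pigs, bars and whiskers: mean and SD, panels have their own vertical range). The probe shown is the called probe with the smallest P. For *SLCO2B1*, *HSD17B4*, *ABCG2* and *ONECUT1* it is not the brightest probe of the gene. *SLCO2B1* is lowest in low RFI pigs fed LF (mean 6.29), and *ABCB1* and *ABCB4* are lowest in high RFI pigs fed LF (means 1.48 and 1.57).

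*KLB*, the nearest neighbour of *CYP7A1*, was not called for line (log2 FC 0.01, P = 0.974) or diet (0.41, P = 0.156). *CYP4A21*, which in pigs makes hyocholic acid from chenodeoxycholic acid, was added after the list had been drawn up. Its 4 tested probes had log2 FC for diet of 0.24 (P = 0.0401), 0.24 (P = 0.0632), 0.28 (P = 0.0296) and 0.33 (P = 0.00759, P-BH = 0.179), of which 1 was called, and for line of -0.18 to -0.01 with P of 0.145 or more. Close relatives in the same gene family could share its signal. The deviations of these probes had r of 0.503 to 0.585 with *CYP7A1* over 48 pigs and 0.332 to 0.455 without the extreme pig.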

How the data were processed

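Liver RNA of 48 pigs had been labelled with Cy3 and hybridised to single-colour Agilent pig arrays. The authors deposited the scanner output of each array (Feature Extraction 10.7.3.1), whose background-subtracted intensity was used here, and a table of log2 values centred on each array's median (37379 probes), used as an alternative. Within an array that table equals the log2 median intensity without background subtraction up to a constant (SD of the difference at most 2.24e-07). Per the labels the authors used R 2.10.0.

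Here, control spots were left out, 483 outlier spots were set to missing, the log2 intensity of an array was expressed relative to that array's median, and a probe was tested if it stood well above background on 12 or more arrays. No spot was saturated. Dim probes are limited by background, and the number of arrays limits the precision. The p-values measure the spread between pigs.

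Names came from the RefSeq gene table of the pig assembly by accession (7062 probes) or gene ID (2242), otherwise from the scanner output (16906), and 34095 probes had none. Of the 15 member probes, 14 were matched by name and 1 of *NR0B2* by gene ID. Line, diet and their interaction were fitted with limma 3.58.1 in R 4.3.3 with moderated variances (prior degrees of freedom 2.8), and group contrasts came from the same fit. The fit was tested on simulated data. Correlations used deviations from group means, with 100000 permutations within groups.

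The 8 members, the list of other bile acid genes and the tests were chosen with earlier results of these data known. Named were all members, other bile acid genes with a called probe, and the 3 most and 3 least like genes of *CYP7A1* and of called members. A gene that the rule names for *NR1H4* is not reported here. Genes described beyond that rule are marked as chosen after their values were seen. Promoters were not searched. Alternatives were an ANOVA without moderation, other centring (75th percentile), quantile normalization, normexp (offset 50), no background subtraction, no filter, a filter on all 48 arrays, outlier spots kept, slide or scan day as a block, each scan day alone, deposited values, no interaction, and probe means. Added after the data were seen were leaving out each pig, pairs within scan days, pairs without the extreme pig, and pairs with 2 other background settings.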

Additional observations from a re-analysis of the deposited data

Results flagged for a closer look

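*ABCB1* (line by diet log2 value -0.65, P = 0.00186) and *ABCB4* (-0.52, P = 0.00517) stood out because the line by diet term itself passed the unadjusted threshold in limma. For that term 0.376% of all tested probes were called, so a difference in the response to diet between the lines is not shown. Neither passed an adjustment over all 45236 tested probes (P-BH = 1), and 0 of all tested probes did for that term, with 1071 at an unadjusted P under 0.05. On scan day 1 the values were -0.49 (P = 0.0334) and -0.50 (P = 0.0153), and on day 2 -0.81 (P = 0.022) and -0.55 (P = 0.0793), below the threshold with 24 pigs a day but in the same direction. No formal test for outlying samples was run in these groups of 12 pigs. The extreme high RFI pig fed LF was described from its values, and effects and pairs were also computed without it.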

How the results depend on the processing

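The counts of 0 of 15 called probes for line and for line by diet were the same under every alternative run that could give them, and so was the count of 0 called steps between neighbouring groups. Called probes for diet numbered 0 on scan day 1 alone and 1 on scan day 2 alone, against 3 with all pigs. Leaving out each pig in turn gave 2 to 3 for diet and 0 to 0 for line and for line by diet. For diet within the high RFI line the 3 called probes became 1 with quantile normalization, centring on the 75th percentile, the filter on all 48 arrays, scan day as a block or scan day 1 alone, and 0 on scan day 2 alone. Correlated pairs were 9, and numbered 0 on scan day 1, 5 on scan day 2 and 5 without high RFI LF replicate 3, with 6 to 11 under the other settings. Some effects near 0 turned sign: *CYP27A1* for diet (0.0116 with quantile normalization and 0.0089 with normexp, against -0.03), *CYP8B1* for diet (0.0016 on scan day 1 and 0.0079 with the mean of its probes, against -0.12), *ABCB11* for line by diet (0.0362 on scan day 1) and for line (-0.0829 on scan day 2), and on scan day 2 *CYP7A1* (0.0912) and *NR1H4* (0.0425) for line by diet. Single days hold 24 pigs, and the causes were otherwise not tested. Of the single-probe effects under the alternatives, 499 kept direction and call, 31 lost the call, most of them on single days, and 1 gained it (*CYP4A21* probe 1 for diet with quantile normalization, 0.31, P = 0.00605). Other bile acid genes called were 6 for line and 5 with the 75th percentile or the deposited values. No paired analysis was possible because the labels tie no pig of a group to a pig of another group, and replicate numbers follow the order of deposit. The slide that pigs of like number shared left all counts of called members as they were when fitted as a block.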
